A study of Rattus norvegicus with 3 samples.

Results

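The genes described here encode solute carriers that move ions, metals and sugars across membranes: the glucose and hexose carriers of family 2, the bicarbonate carriers of family 4, the sodium-coupled carriers of family 5, the calcium exchangers of families 8 and 24, the sodium-proton exchangers of family 9, the metal carriers of families 11, 30, 39, 40 and 41, the cation-chloride cotransporters of family 12 and the phosphate carriers of families 20 and 34. A gene was a member when the platform annotation gave a probe set that one symbol alone and the symbol was Slc, one of these 14 family numbers, the letter a and a number. This gave 76 genes with 106 probe sets, out of 14218 genes with 20832 probe sets that carried 1 symbol. Of these carriers 50 had 1 probe set and 26 had several. Carriers of other families, and probe sets with several symbols, were not analysed here.

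The cells were granulosa cells punctured from follicles of immature Sprague-Dawley females, 24 to 25 days old, 48 h after pregnant mare's serum gonadotropin, which brings follicles to the preovulatory stage. They were cultured in Opti-MEM with insulin, transferrin and selenium, and all groups, the control included, were infected with an adenovirus at 50 pfu per cell for 2 h. The 3 groups were Ad-NFIL3 with FSK/PMA, the green fluorescent protein virus Ad-GFP with FSK/PMA, and Ad-GFP without it, called below the NFIL3 array, the FSK/PMA array and the control array. FSK/PMA stands for 10 uM forskolin and 20 nM phorbol 12-myristate 13-acetate, given for 6 h from 24 h after infection in place of the ovulatory hormone, and NFIL3 is a transcription factor known mainly as a repressor. Each group had 1 Affymetrix rat array, hybridised with RNA pooled from 3 experiments, so every difference below is one between pools, has no replicate check and carries no p-value. Fewer cells of a type and less RNA per cell cannot be told apart in such samples.

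As background, sugar and ion carriers set what a granulosa cell can take up and how it keeps its volume, pH and calcium while it turns from an estrogen-producing to a progesterone-producing cell after the ovulatory surge. Facilitative carriers of family 2 bring in glucose, which granulosa cells break down for their own energy and for the oocyte. Zinc leaves the cytosol through family 30 and enters it through family 39, iron leaves cells through ferroportin, the product of Slc40a1, and sodium-calcium exchangers remove calcium after a signal.

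Values are MAS5 signals, intensities that the authors scaled to a common trimmed mean, and each gene is given by its brightest probe set. Any signal under 126, the median of the whole table, was replaced by that floor before log2 differences were taken. A fold is given as "at least" where 1 of the 2 arrays was under the floor. A carrier counts as measured in a comparison where 1 or both of its arrays exceeded the floor, and differences of 2-fold or more were counted. The share of probe sets over the floor was 48.1% to 51.8% per array. Nfil3 had signals of 5882 on the NFIL3 array, 1321 on the FSK/PMA array and 564 on the control array and was thus highest on the array labelled Ad-NFIL3. Ptgs2, the inducible cyclooxygenase of the ovulatory response, had 1678, 6644 and 102 on the NFIL3, FSK/PMA and control arrays. Of 11 granulosa cell markers on the array 0 were below the floor on all arrays, and their summed signals were 37470, 65135 and 88619 on the NFIL3, FSK/PMA and control arrays. Cyp19a1, aromatase, was the 1 marker of these past 2-fold in the higher direction with FSK/PMA, and 6 were past it in the lower direction. Summed in the same order, 9 theca and stroma markers had 1530, 1067 and 1271, 8 leukocyte markers had 3288, 3004 and 2375, 5 endothelial markers had 529, 485 and 418, and 5 oocyte markers had 430, 575 and 967. Of the oocyte markers only Zp2, with 269, 406 and 891, was above the floor on any array. Below the floor on every array were 3 of the 9 theca and stroma markers (Cyp17a1, Insl3 and Lum) and 3 of the 8 leukocyte markers (Ptprc, Itgam and Adgre1). So were 3 of the 5 endothelial markers (Pecam1, Tek and Vwf) and 4 of the 5 oocyte markers (Zp1, Zp3, Gdf9 and Bmp15). The rest of these lists were above it on 1 or more arrays. Among them, Cd14 had 1562, 1488 and 606, Lyz2 had 970, 769 and 1110, Dcn had 481, 196 and 201, and Egfl7 had 216, 190 and 102. The 4 red cell markers summed to 15760, 18456 and 19988, nearly all of it Hbb, beta globin. The part of these shifts in marker signals in the carrier differences was not tested, except where a value is given beside a carrier.

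With FSK/PMA, 7 of 45 measured carriers (15.6%) had signals at least 2-fold higher, beside 7.43% of all measured genes, and 6 of 45 (13.3%) had signals at least 2-fold lower, beside 11.4%, so the lower share is near that of all genes. Slc2a1, the glucose carrier on the surface of most cells, was 3.87-fold higher, the phosphate importer Slc20a1 was 3.74-fold higher, and the zinc carriers Slc39a14 and Slc30a1 were 3.99-fold and 3.88-fold higher by their brightest probe sets. The iron exporter Slc40a1 was at least 5.06-fold lower, the calcium exchangers Slc24a4 and Slc8a1 were 4.38-fold and 2.82-fold lower, and the chloride carriers Slc12a7, Slc4a3 and Slc4a2 were 3.17-fold, 2.90-fold and 2.81-fold lower. Between stimulated cells with and without the NFIL3 virus, 1 of 45 measured carriers (2.22%) differed by 2-fold or more, near the 2.30% of all genes. It was the sodium bicarbonate cotransporter Slc4a4, whose log2 difference as the mean of its probe sets was -0.75, inside 2-fold.

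Of the 13 carriers that differed by 2-fold or more with the stimulus, 11 had a promoter entry. The metal response element was found in 20.6% of all promoter entries and the core TGACG in 18.2%. The share of all entries with any searched motif was not taken. Of the 11 carriers, 7 hold a match to a searched motif in their upstream bases. Promoters of 4 of them, picked after the values were seen, are shown as examples of the motifs. Those of Slc2a1 and Slc30a1 hold the metal response element. Those of Slc30a9 and Slc8a1, the only 2 with it, hold the core of the cAMP response element. Each is the 250 bases before the RefSeq start of the gene in build GRCr8, read 5′ to 3′ on the strand of the gene, with motif matches in capitals. The Slc2a1 sequence lies at chr5:138002272-138002521 on the plus strand, that of Slc30a1 at chr13:106021769-106022018 on the plus strand, that of Slc30a9 at chr14:41224789-41225038 on the minus strand and that of Slc8a1 at chr6:19023309-19023558 on the plus strand.
Slc2a1: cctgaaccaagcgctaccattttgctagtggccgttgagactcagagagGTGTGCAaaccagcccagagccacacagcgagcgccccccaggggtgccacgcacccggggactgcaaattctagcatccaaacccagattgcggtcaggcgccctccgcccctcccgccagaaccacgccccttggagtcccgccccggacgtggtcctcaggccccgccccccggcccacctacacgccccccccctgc
Slc30a1: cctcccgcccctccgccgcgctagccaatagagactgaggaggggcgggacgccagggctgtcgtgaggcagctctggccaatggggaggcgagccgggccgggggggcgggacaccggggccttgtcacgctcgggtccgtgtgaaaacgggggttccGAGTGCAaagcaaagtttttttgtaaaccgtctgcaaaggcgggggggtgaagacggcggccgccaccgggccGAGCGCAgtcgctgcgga
Slc30a9: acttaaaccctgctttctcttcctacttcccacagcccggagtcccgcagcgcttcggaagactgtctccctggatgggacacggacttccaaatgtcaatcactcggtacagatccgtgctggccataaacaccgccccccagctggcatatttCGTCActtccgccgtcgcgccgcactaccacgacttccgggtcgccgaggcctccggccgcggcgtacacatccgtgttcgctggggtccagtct
Slc8a1: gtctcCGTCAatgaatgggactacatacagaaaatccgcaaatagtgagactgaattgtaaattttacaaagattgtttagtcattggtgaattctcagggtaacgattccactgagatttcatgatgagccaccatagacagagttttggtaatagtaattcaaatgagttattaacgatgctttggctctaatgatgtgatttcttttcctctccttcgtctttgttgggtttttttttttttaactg
In Slc2a1 and Slc30a1 the capitals mark the metal response element, searched as TGCACNC and TGCGCNC on both strands, which is the site of the zinc-sensing factor MTF1. The match in Slc2a1 begins 201 bases before the start, and those in Slc30a1 begin 91 and 18 bases before it. In Slc30a9 and Slc8a1 the capitals mark TGACG, the core of the cAMP response element, on the opposite strand, 95 and 245 bases before the start. A match is a description of letters and not a site of binding.

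Of the 76 carriers, 63 had a promoter entry, and of the 13 that differed by 2-fold or more in a comparison 11 had one. One of the metal response element forms was found in 5 of these 11 (Slc2a1, Slc30a1, Slc4a2, Slc4a4 and Slc5a3), beside 26 of the 69 promoter entries of all carriers and 20.6% of all 33469 promoter entries, and Slc30a1 alone of the 5 held both forms. The core TGACG was found in 2 of 11, beside 9 of the 69 entries of carriers and 18.2% of all entries. The full element TGACGTCA was found in 0 of 11 and 1.59% of all entries, and the AP-1 motif TGANTCA in 0 of 11 and 6.34%. The NFIL3 motifs TTATGTAA and TTACGTAA were found in 0 of 11, and in 0.828% and 0.108% of all entries. All of these were searched on both strands, TGACG also lies inside TGACGTCA, and the metal response element was chosen after the values were seen.

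Setting the stimulated Ad-GFP cells against Ad-GFP cells without FSK/PMA asks which carriers respond to the ovulatory stimulus. Of the 76 carriers 28 were below the floor on all arrays, 36 were above it on all arrays and 12 on 1 or 2 arrays. In this comparison 45 carriers were measured, 7 of them with 1 of the 2 arrays under the floor. Carriers past 2-fold in either direction were 28.9% of those measured, beside 18.8% of the 9395 genes measured. The other 32 carriers were not counted as past 2-fold, 17 of them with a positive and 15 with a negative difference. For 5 of the 32 (Slc2a3, Slc2a8, Slc9a2, Slc12a5 and Slc39a4) the difference is a bound and may be larger than 2-fold. The median log2 difference was 0.02 over the carriers and -0.10 over all genes. With a floor at the 75th percentile, 5 were higher and 3 lower, since Slc30a1, Slc4a4, Slc4a3, Slc24a4 and Slc40a1 then fell inside 2-fold or below the floor.

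**Figure D1:**
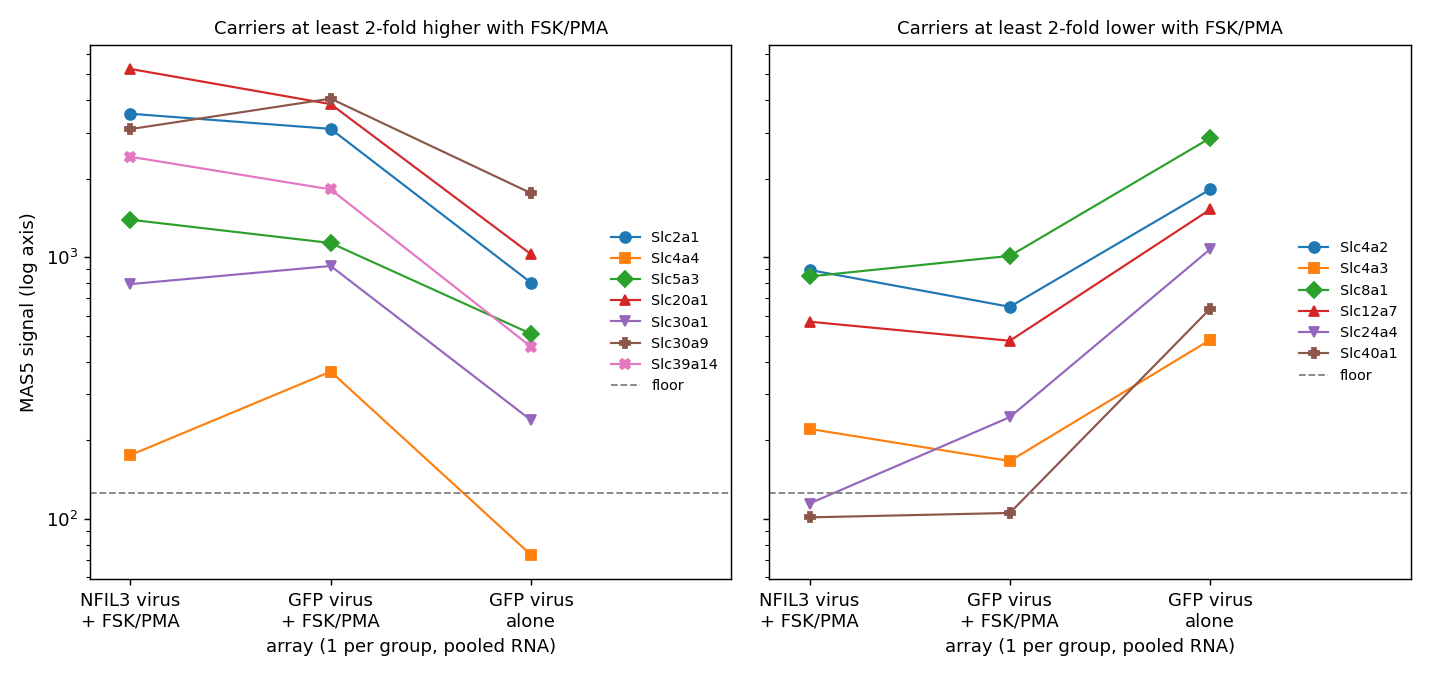
MAS5 signal (log axis) on the NFIL3, FSK/PMA and control arrays for the 7 carriers at least 2-fold higher (left) and the 6 at least 2-fold lower (right) with FSK/PMA. Each point is 1 array of pooled RNA, lines join the points of 1 carrier, and the dashed line is the floor of 126; Slc4a4 was at 176 on the NFIL3 array and 367 on the FSK/PMA array, and the 13 carriers shown were chosen for their difference from the control array.

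Of 4 measured glucose and hexose carriers 1, Slc2a1, was at least 2-fold higher with FSK/PMA, beside 7.43% of all genes. The signal of Slc2a1 was 3539 on the NFIL3 array, 3098 on the FSK/PMA array and 801 on the control array. Both stimulated arrays are read against the same control array, so a low signal there alone would make both look high. The other 3 of the 4 measured members of the family were not counted as past 2-fold, Slc2a3 and Slc2a8 with bounds. Slc2a3, a high-affinity glucose carrier of neurons and other cells, had signals of 200, 130 and 37.3 on the NFIL3, FSK/PMA and control arrays. With the control array under the floor, its FSK/PMA difference was at least 0.05 on the log2 scale, a bound close to 0, and with a floor at the 25th percentile it was counted among the higher carriers. Slc2a5, a fructose carrier, had 174, 239 and 273, and Slc2a8, an intracellular hexose carrier, had 49.1, 84.8 and 155. Slc2a13, a proton-coupled inositol carrier, had 161, 113 and 103 and was above the floor on the NFIL3 array only. Slc2a2, Slc2a4, Slc2a6 and Slc2a9 were below the floor on all arrays, so the signal of the insulin-responsive carrier Slc2a4 did not reach a measured level in these cells.

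Genes that trap or meter glucose were read beside the carriers. Of 26 measured genes of glucose capture and fuel use, 2 were higher and 4 lower by 2-fold or more with FSK/PMA, with a median of 0.15. The shares in all measured genes were 7.43% higher and 11.4% lower. Txnip, which encodes a protein that draws glucose carriers from the cell surface, had signals of 2660, 1192 and 11798 on the NFIL3, FSK/PMA and control arrays and was 9.90-fold lower with FSK/PMA. Pfkfb3, which makes the activator of phosphofructokinase, had 306, 658 and 140 and was 4.70-fold higher. Both dimmer probe sets of Pfkfb3 stayed under the floor on all arrays. Myc was 2.73-fold higher, with signals of 1502, 1823 and 668. Tbc1d4, which holds Slc2a4 protein inside cells until insulin acts, was 2.70-fold lower, with 414, 384 and 1037. Txnip was lowest on the FSK/PMA array, and on the NFIL3 array it stood between its other signals. Slc2a1 had a log2 difference of 0.19 between the NFIL3 and FSK/PMA arrays, and of -0.045 with median scaling. A link between Txnip and Slc2a1 was not tested.

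Sodium-coupled carriers of family 5 were mostly not measured. Slc5a3, which carries myo-inositol, an osmolyte and a precursor of phosphoinositides, had signals of 1393 on the NFIL3 array, 1135 on the FSK/PMA array and 511 on the control array. It was 2.22-fold higher with FSK/PMA. Slc5a6, which carries biotin and pantothenate, had 215, 351 and 399 and was 1.14-fold lower. The glucose carriers Slc5a1 and Slc5a2, the iodide carrier Slc5a5, the choline carrier Slc5a7, and Slc5a11 and Slc5a12 were below the floor on all arrays.

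Of 2 measured phosphate importers, 1 was at least 2-fold higher with FSK/PMA, beside 7.43% of all genes. Slc20a1 had signals of 5247 on the NFIL3 array, 3851 on the FSK/PMA array and 1029 on the control array. Both stimulated arrays were above the same control array. Its relative Slc20a2 had 363, 377 and 327 and was 1.15-fold higher, but its dimmer probe set was lower by a log2 difference of -0.57, so the direction of Slc20a2 depends on the probe set. The phosphate carriers of kidney and gut, Slc34a1, Slc34a2 and Slc34a3, were below the floor on all arrays. Xpr1, the phosphate exporter, had a log2 difference of 0.07.

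Of 16 zinc carriers measured in families 30 and 39, 3 were higher by 2-fold or more with FSK/PMA and 0 lower. Over all measured genes, 7.43% were higher and 11.4% lower by this size. Counting differences of any size, some of them near 0 such as 0.01 in Slc39a1 and 0.02 in Slc39a13, 13 were positive and 3 negative, and 43.3% of all measured genes had a positive one. The median was 0.24, beside the -0.10 of all genes, and under each of the other scalings 14 of 17 measured were positive, while with a floor at the 25th percentile it was 14 of 20. Slc30a1, the exporter of the cell surface, had signals of 791 on the NFIL3 array, 928 on the FSK/PMA array and 239 on the control array. Slc39a14, an importer of zinc that also carries iron and manganese, had 2424, 1819 and 456. A dimmer probe set of Slc39a14 gave 362, 215 and 59.2, a log2 difference of at least 0.78, and the mean of both sets was 1.39, beside 2.00 for the brightest. Slc30a9, a zinc carrier of mitochondria, had 3091, 4042 and 1760 and was 2.30-fold higher. In all 3 both stimulated arrays were above the same control array, by which these carriers were picked.

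Within the secretory pathway, Slc30a5 and Slc30a7, which load zinc into secreted enzymes, were 1.80-fold and 1.85-fold higher, just under the counted size. Slc30a5 had signals of 1561, 1578 and 876 and Slc30a7 had 589, 688 and 373 on the NFIL3, FSK/PMA and control arrays. Slc30a6, which works in a pair with Slc30a5, was 1.03-fold higher, and Slc30a4 was 1.42-fold higher. Slc30a3, of synaptic vesicles, had 219, 113 and 41.4 and was above the floor on the NFIL3 array only. Slc30a2 and Slc30a10 were below the floor on all arrays.

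The other zinc importers were not counted as past 2-fold, Slc39a4 with a bound. Slc39a1, an importer of the cell surface, had signals of 3831, 3169 and 3154 on the NFIL3, FSK/PMA and control arrays, and Slc39a7, which releases zinc from the endoplasmic reticulum, had 3686, 3633 and 3076. Over the 10 measured members of family 39 the FSK/PMA differences ran between -0.68, in Slc39a11, and 2.00, in Slc39a14. Slc39a8, the nearest relative of Slc39a14, was 1.42-fold lower. Slc39a6 was 1.32-fold higher by its brightest probe set, while its dimmer probe sets gave log2 differences of at least 0.86 and at least 1.14. Slc39a2 and Slc39a5 were below the floor on all arrays.

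Of 16 measured genes of metal storage and iron uptake, 0 were higher and 2 lower by 2-fold or more, beside the 7.43% and 11.4% of all genes, with a median of -0.17. Mt2A, a metallothionein that binds zinc and is a target of MTF1, had signals of 3537, 4486 and 9351 on the NFIL3, FSK/PMA and control arrays, 2.08-fold lower with FSK/PMA. Mtf1 itself had a log2 difference of 0.10. Steap4, a metalloreductase, was at least 2.63-fold lower, Hmox1, which frees iron from heme, had a log2 difference of -0.82, and Mt3 had 0.79.

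With the brightest probe set and the floor of 126, the iron exporter had the largest fold among the carriers. As the mean of its probe sets its log2 difference was -1.67, smaller in size than those of Slc30a1, Slc2a1 and Slc20a1, and with a floor at the 75th percentile it was -0.22. Slc40a1 had signals of 102 on the NFIL3 array, 106 on the FSK/PMA array and 637 on the control array, so it was above the floor on the control array only. A second probe set gave 118, 66.7 and 595 on these arrays, a log2 difference of -2.24 or beyond, and the dimmest set gave 82.6, 106 and 170. Ferroportin is abundant in macrophages. Of the 8 leukocyte markers, Cd14 was 2.46-fold and Cd68 1.36-fold higher with FSK/PMA, Lyz2 was 1.44-fold lower and Cd74 had a log2 difference of 0.04, while Ptprc, Itgam, Adgre1 and Csf1r were not measured. The part of such cells in the Slc40a1 difference was not tested. Slc11a2, which brings iron into the cytosol, had 734, 596 and 841 and was 1.41-fold lower, although its dimmer probe set had a log2 difference of 0.32. Tfrc, the transferrin receptor, had signals of 7586, 10445 and 10645 and a log2 difference of -0.03.

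**Figure D2:**
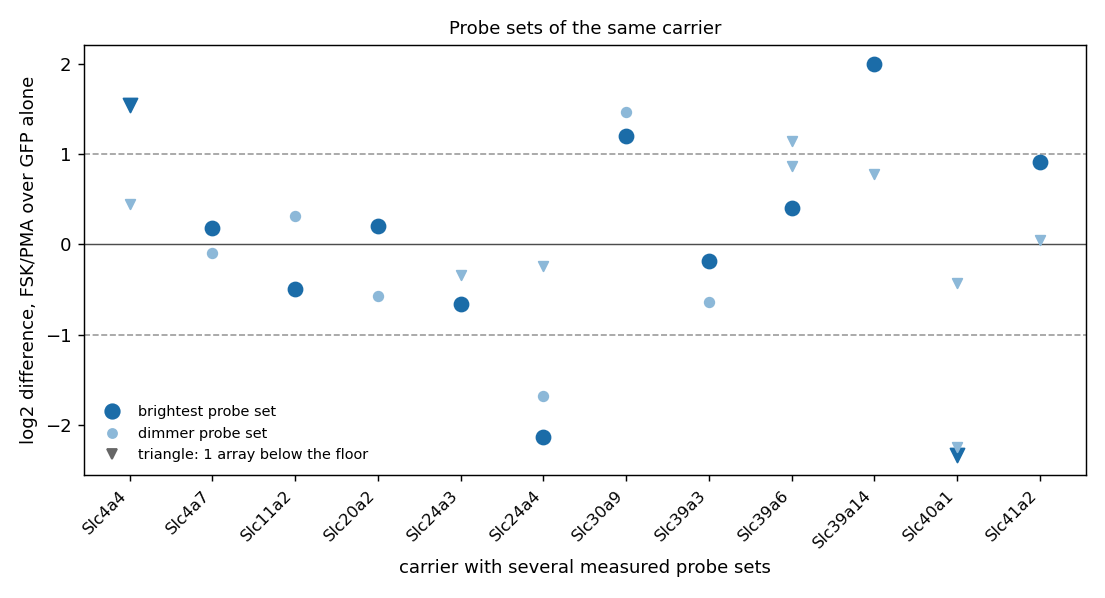
Log2 difference of FSK/PMA over control for each measured probe set of the 12 carriers that have several, with the brightest set dark and dimmer sets pale; triangles have 1 array under the floor, so they are bounds. Dashed lines mark 2-fold; the 2 brightest sets of Slc40a1 lie together, while Slc4a7, Slc11a2 and Slc20a2 have sets on both sides of 0.

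Of 3 calcium exchangers measured with FSK/PMA, 2 were lower by 2-fold or more, beside 11.4% of all genes, and all 3 had a negative difference, as did 56.7% of all genes. Under each of the other scalings Slc24a2 was measured as well and had a positive difference, and with a floor at the 25th percentile 6 were measured, 2 of them with a positive difference, and the median was -0.67, beside -1.50 at the floor of 126. Slc8a1, the sodium-calcium exchanger of heart and many other cells, had signals of 846 on the NFIL3 array, 1014 on the FSK/PMA array and 2858 on the control array. Slc24a4, a potassium-dependent sodium-calcium exchanger, had 115, 246 and 1075. A second probe set of Slc24a4 gave 83.9, 138 and 442, a log2 difference of -1.68, and the dimmest gave 4.94, 5.59 and 149. Slc24a3, of the same kind, had 1172, 1138 and 1805 and was 1.59-fold lower. Slc24a2 was above the floor on the NFIL3 array only, and Slc8a2, Slc8a3 and Slc24a1 were below it on all arrays.

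Atp2b1, a calcium pump of the cell surface, was past 2-fold as well. Its signal was 8029, 11946 and 4408 on the NFIL3, FSK/PMA and control arrays, 2.71-fold higher with FSK/PMA, and its dimmer probe sets gave log2 differences of 1.25 and 0.49. Of 15 measured ion pumps and regulators of ion carriers, 2 were higher and 3 lower by 2-fold or more, beside 7.43% and 11.4% of all genes. Their median was -0.17. Car2, a carbonic anhydrase that supplies bicarbonate and protons to carriers of families 4 and 9, had 2150, 1113 and 106 and was at least 8.84-fold higher. Its dimmer probe set, above the floor on all arrays with 1636, 765 and 170, gave a smaller log2 difference of 2.17. Atp1b1 and Atp1b2, beta subunits of the sodium pump on which sodium-coupled carriers depend, were 2.45-fold and 2.34-fold lower. The third lower gene was Sgk1, a kinase that regulates sodium transport, at 2.25-fold, named after its value was seen.

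Of 5 measured bicarbonate carriers of family 4, 1 was higher and 2 lower by 2-fold or more with FSK/PMA. The shares in all measured genes were 7.43% and 11.4%. Slc4a2, an anion exchanger that loads cells with acid by trading bicarbonate for chloride, had signals of 896 on the NFIL3 array, 648 on the FSK/PMA array and 1819 on the control array. Slc4a3, another anion exchanger, had 221, 167 and 484. Slc4a4, a sodium bicarbonate cotransporter, had 176, 367 and 73.1, at least 2.91-fold higher with FSK/PMA. As the mean of its probe sets its log2 difference was 0.99, inside 2-fold. Both anion exchangers were thus low where Slc4a4 was high. Slc4a7, which brings in sodium with bicarbonate, had 2066, 1744 and 1540, and Slc4a11 had 215, 188 and 201. Slc4a10 and Slc4a1, the anion exchanger of red cells, were below the floor on all arrays, whereas Hbb had 15376, 18005 and 19442.

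Of 5 measured cation-chloride cotransporters of family 12, 1 was lower by 2-fold or more, beside 11.4% of all genes. All 5 had a negative difference under every scaling tried, beside 56.7% of all genes at the scaling used here, while with a floor at the 25th percentile 6 were measured and 1 had a positive difference. Slc12a7, which carries potassium and chloride out of swollen cells, had signals of 568 on the NFIL3 array, 481 on the FSK/PMA array and 1524 on the control array. Slc12a2, which brings in sodium, potassium and chloride, had 801, 967 and 1274. Slc12a4 was 1.57-fold lower, Slc12a9 was 1.37-fold lower, and Slc12a5, a neuronal chloride exporter, was at least 1.51-fold lower. The kinases Stk39 and Oxsr1, which phosphorylate this family, had log2 differences of -0.57 and -0.51, and a dimmer probe set of Stk39 had 0.13. Slc12a1, Slc12a3 and Slc12a8 were below the floor on all arrays.

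Of 3 measured sodium-proton exchangers and 3 measured magnesium carriers, 0 were counted as past 2-fold with FSK/PMA, beside 18.8% of all genes. Slc9a8, of the Golgi, had signals of 363, 312 and 172 on the NFIL3, FSK/PMA and control arrays, 1.81-fold higher with FSK/PMA. Slc9a9, of endosomes, had 151, 152 and 253, 1.66-fold lower. Slc9a2 had 164, 159 and 119, and Slc9a3, Slc9a4 and Slc9a5 were below the floor on all arrays. Slc41a2 had 456, 434 and 231, 1.88-fold higher, while Slc41a1, a magnesium exporter, had 629, 612 and 1011, 1.65-fold lower. Slc41a3 was 1.26-fold higher.

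**Figure D3:**
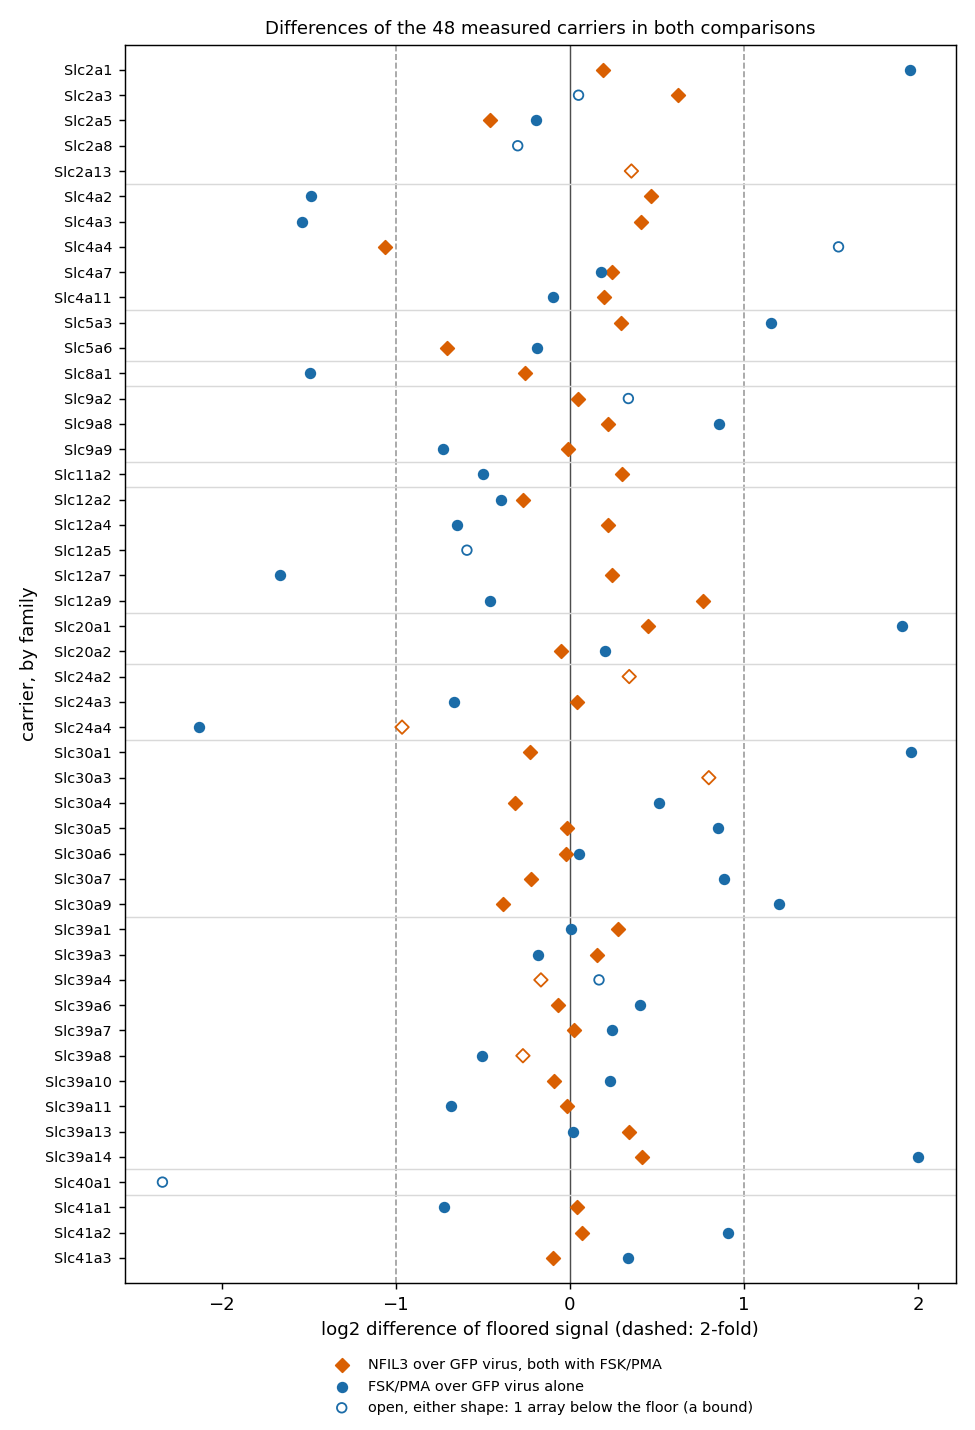
Log2 difference of floored signal for the 48 carriers above the floor on at least 1 array, by family, for NFIL3 over GFP virus with FSK/PMA (orange diamonds) and for FSK/PMA over control (blue circles). Open symbols are bounds and dashed lines mark 2-fold; 13 circles and 1 diamond, that of Slc4a4, lie beyond them.

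Setting Ad-NFIL3 against Ad-GFP among stimulated cells asks which carriers of stimulated cells differ when NFIL3 is overexpressed. Slc4a4 was 2.08-fold lower on the NFIL3 array, the only 1 of 45 measured carriers at least 2-fold lower (2.22%), beside 0.958% of 9397 genes. At least 2-fold higher were 0 of 45, beside 1.34% of all genes, and in either direction 2.30% of all genes passed. A single carrier is near the share in all genes. The median log2 difference was 0.04 over the carriers and 0.03 over all genes, and 6 of the 45 had 1 array under the floor.

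Slc4a4 thus had its highest signal, 367, on the FSK/PMA array, against 176 on the NFIL3 array and 73.1 on the control array. Its dimmer probe set gave 22.0, 172 and 48.1 on the NFIL3, FSK/PMA and control arrays, with the FSK/PMA array again the highest, but bounds of only 0.45 and -0.45 for the FSK/PMA and NFIL3 log2 differences. Taken as the mean of both probe sets, the differences of Slc4a4 were 0.99 with FSK/PMA and -0.75 with NFIL3, both inside 2-fold. Slc24a4 came nearest to the counted size otherwise, at least 1.95-fold lower, and was past 2-fold with median scaling, quantile normalisation and cyclic loess. As the mean of its measured probe sets its log2 difference was -0.55, and its second probe set gave a bound of only -0.13.

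The other 6 carriers that were higher with FSK/PMA differed by less than 2-fold between the NFIL3 and FSK/PMA arrays. Slc20a1, Slc39a14, Slc5a3 and Slc2a1 had log2 differences of 0.45, 0.41, 0.30 and 0.19, and Slc30a1 and Slc30a9 had -0.23 and -0.39. Of the 6 lower carriers 5 were measured here. Slc4a2, Slc4a3 and Slc12a7 had 0.47, 0.41 and 0.24, Slc8a1 had -0.26 and Slc24a4 had -0.96 as a bound. Slc40a1 was under the floor on both arrays. Both comparisons share the FSK/PMA array, so a high or low signal there moves both differences of a carrier in opposite directions.

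No carrier outside these 13 was counted as past 2-fold here. Some of the differences are bounds, such as that of Slc39a4, at least 1.12-fold lower, with signals of 56.0 on the NFIL3 array and 141 on the FSK/PMA array, and with a floor at the 25th percentile Slc39a4 was past 2-fold. The largest differences among them were those of Slc30a3, at least 1.74-fold higher, Slc12a9, 1.70-fold higher, Slc5a6, 1.63-fold lower, and Slc2a3, 1.54-fold higher. Slc12a9 had signals of 300 on the NFIL3 array, 177 on the FSK/PMA array and 243 on the control array. A dimmer probe set of Slc20a2, with 271, 136 and 203, had a log2 difference of 0.99, where the brightest had -0.05.

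Among the other genes of these pathways, Txnip was 2.23-fold higher and Pfkfb3 was 2.15-fold lower on the NFIL3 array, the 2 of 26 glucose genes past 2-fold. Beside this list and the 2 below, 2.30% of all measured genes were past 2-fold in either direction. Lists of this size can hold few or none at that share. Arrdc4, a relative of Txnip, and Pfkp had log2 differences of 0.87 and -0.69, and the median of the list was 0.00. Ion pumps and regulators had 0 of 17 past 2-fold and a median of 0.16. Car2 was 1.93-fold higher, with a difference of 1.10 in its dimmer probe set, Fxyd5 was at least 1.52-fold higher and Atp2b1 was 1.49-fold lower. Metal storage and iron uptake genes had 0 of 16 past 2-fold and a median of -0.09. Steap4 was at least 1.86-fold higher, and Tfrc, Mt1 and Hmox1 had log2 differences of -0.46, -0.45 and 0.41.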

How the data were processed

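Per the submitters' processing notes, MAS5 (no version named) made the deposited values, a linear intensity for each probe set. Per the labels, 5 ug of RNA pooled from 3 experiments were used per array. Each column had a 2% trimmed mean of 500.2, so the authors had scaled the arrays alike. Because MAS5 subtracts mismatch probes, dim values are noisy. The 3 arrays, 1 per group, limit the precision, and no test is possible.

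From these values, arrays were brought to exactly the same trimmed mean, signals under the median of all 31099 probe sets were set to that floor, log2 was taken, and the brightest probe set stood for a gene (Python 3.11.15, pandas 2.3.3; limma 3.58.1 for quantile and loess scaling). Symbols came from the platform annotation, updated by Entrez ID in RefSeq (GRCr8), in which 20764 of 20832 probe sets matched. The scripts were checked on a simulated table. Named were Slc2a1, carriers past 2-fold in either comparison, the brightest members of each family, further members by family, and up to 4 genes with the largest difference of each other list, except Xpr1, Mtf1, Stk39, Oxsr1, Tfrc, Sgk1 and single cell type markers, which were chosen later for their role. The members and lists were chosen with earlier results of these data known. Alternatives were the floor, the scaling, the choice of probe sets and the fold counted. Promoters came from the RefSeq table of GRCr8. Probe-level files were not used here.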

Additional observations from a re-analysis of the deposited data

How the results depend on the processing

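In the FSK/PMA comparison, the counts of 7 higher and 6 lower carriers became 11 and 12 at a fold of 1.5. With a floor at the 75th percentile 5 were higher and 3 lower, since dim carriers such as Slc30a1, Slc40a1, Slc24a4, Slc4a3 and Slc4a4 then lie at or near the floor. Quantile normalisation and cyclic loess gave 10 higher and 6 lower, adding Slc30a7, Slc41a2 and Slc9a8. The median of the carriers ranged between 0.01 and 0.18 over the settings. Median scaling moved the median of all genes from -0.10 to 0.03 with FSK/PMA, and gave 856 genes higher and 852 lower in place of 698 and 1072. In the NFIL3 comparison it moved that median from 0.03 to -0.20 and the median of the carriers from 0.04 to -0.19, and gave 48 genes higher and 190 lower in place of 126 and 90.

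The NFIL3 count of 1 lower carrier was 3 with a floor at the 25th percentile (Slc4a4, Slc24a4 and Slc39a4), 3 at a fold of 1.5, 2 with median scaling, quantile normalisation and cyclic loess, and 0 with a floor at the 75th percentile and with the mean of probe sets. The count of 0 higher carriers was 2 with a floor at the 25th percentile (Slc5a2 and Slc9a5, both dim) and 3 at a fold of 1.5. Quantile normalisation gave 91 genes higher and 112 lower with NFIL3, and cyclic loess 86 and 118.

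Of 95 values of carriers past 2-fold under the 7 alternatives that kept the fold, 90 stayed past it and 0 turned direction. Many of the 95 could not change, so this count overstates stability. Leaving out _x_at and _s_at probe sets changed no value, because no carrier has such a set. The mean of probe sets could not change carriers with 1 measured set, such as Slc2a1, Slc20a1 and Slc30a1. Slc4a3 with FSK/PMA and Slc4a4 in both comparisons were under the higher alternative floor and are left out of the 95. The spread between probe sets of the same gene, a robust SD of 0.33 with FSK/PMA over 2549 genes and 0.23 with NFIL3 over 2500 genes, was the yardstick for a moved value, and leaves out differences between cultures. By this yardstick 21 of 170 values of named carriers moved, and some of the 170 could not change. Many that moved were NFIL3 differences under median scaling, where that of Slc2a1 went from 0.19 to -0.045. Among carriers with several measured probe sets, all sets had the same direction in 9 of 12 with FSK/PMA and 8 of 10 with NFIL3. No paired analysis was possible because each group has 1 array. Signals near the floor limit what can be said of the 28 carriers under it.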
